A study of Mus musculus with 11 samples.

Results

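Of the 23337 genes in a count table of mouse adrenal glands, 10 are described here, 8 carbonic anhydrase genes (Car2, Car3, Car4, Car5b, Car8, Car12, Car13 and Car14) and the ammonium transporter genes Rhcg and Rhbg. They were taken by symbol, and all 10 were found. The set was chosen from earlier results of the same comparison, in which Car8 rose and Rhcg fell, so the differences between the groups are given as a description of these libraries and are no independent test. The animals were males of Hsd:Athymic Nude-Foxn1nu, and the RNA of 5 glands from males with testes (intact) and of 6 from orchectomized males (ORX) was sequenced. All animals had received VCaP cells, a human prostate cancer line, at week 0 and at an age of about 5 to 6 weeks, were allocated at week 7 and were killed at week 15. Athymic nude mice lack a thymus and most T cells. Whole glands were used, so fewer cells of a type and less RNA per cell cannot be told apart.

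Carbonic anhydrases are zinc enzymes that turn carbon dioxide and water into bicarbonate and a proton and back, in the cytosol, in mitochondria or at the cell surface according to the isoform. Car8 belongs to the family by sequence but is known to lack this activity, and its protein binds the IP3 receptor Itpr1, a calcium release channel. Rhcg and Rhbg are membrane proteins of the Rh family that pass ammonia or ammonium, best known from the acid-secreting segments of the kidney.

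The glands expressed their defining genes in every library. Summed over 8 markers of the zona fasciculata, the main cortical layer, CPM (counts divided by the TMM-scaled library size) were 35090 to 86580 in intact and 62300 to 94280 in ORX libraries, and Th, the first enzyme of catecholamine synthesis in the medulla, was at 1658 ± 703 and 698 ± 335 CPM (SD, n = 5 and 6; edgeR adjusted p = 0.0565). Library totals ran from 11368447 to 15029582 counts. Of the 10 genes 9 had enough counts for the test, and 1 passed as higher and 1 as lower (edgeR's quasi-likelihood test, adjusted p under 0.05), where 6.21% of all 14139 tested genes passed, 3.03% as higher and 3.18% as lower. The groups did not overlap for 2 of the 10 genes, against 5.28% of all tested genes. Since the set was chosen on this comparison, nothing is read from these shares.

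Car8 (chromosome 4, 8143362 to 8239041, minus strand, GRCm38) was low in intact glands, with 41, 40, 22, 33 and 20 counts, or 2.99, 3.4, 1.46, 2.76 and 1.52 CPM. In ORX it had 701 to 2836 counts, with a lowest value of 51.7, a median of 142 and a highest of 191 CPM. Every ORX library was thus far above every intact library, and ORX 3 was the lowest of its group. The mean went from 2.42 ± 0.89 to 135 ± 52.5 CPM (SD, n = 5 and 6), which is a difference of log2 5.81 ± 0.39 (SE; 55.9-fold; edgeR adjusted p = 3.65e-06). By fold change it took rank 9 among the rises of all tested genes. Leaving out any 1 library kept the log2 fold change between 5.65 and 5.97 and the edgeR adjusted p at 4.36e-05 or below. Within the Car8 gene lie Gm11799 and Gm25355, whose exons do not overlap its own.

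**Figure D1:**
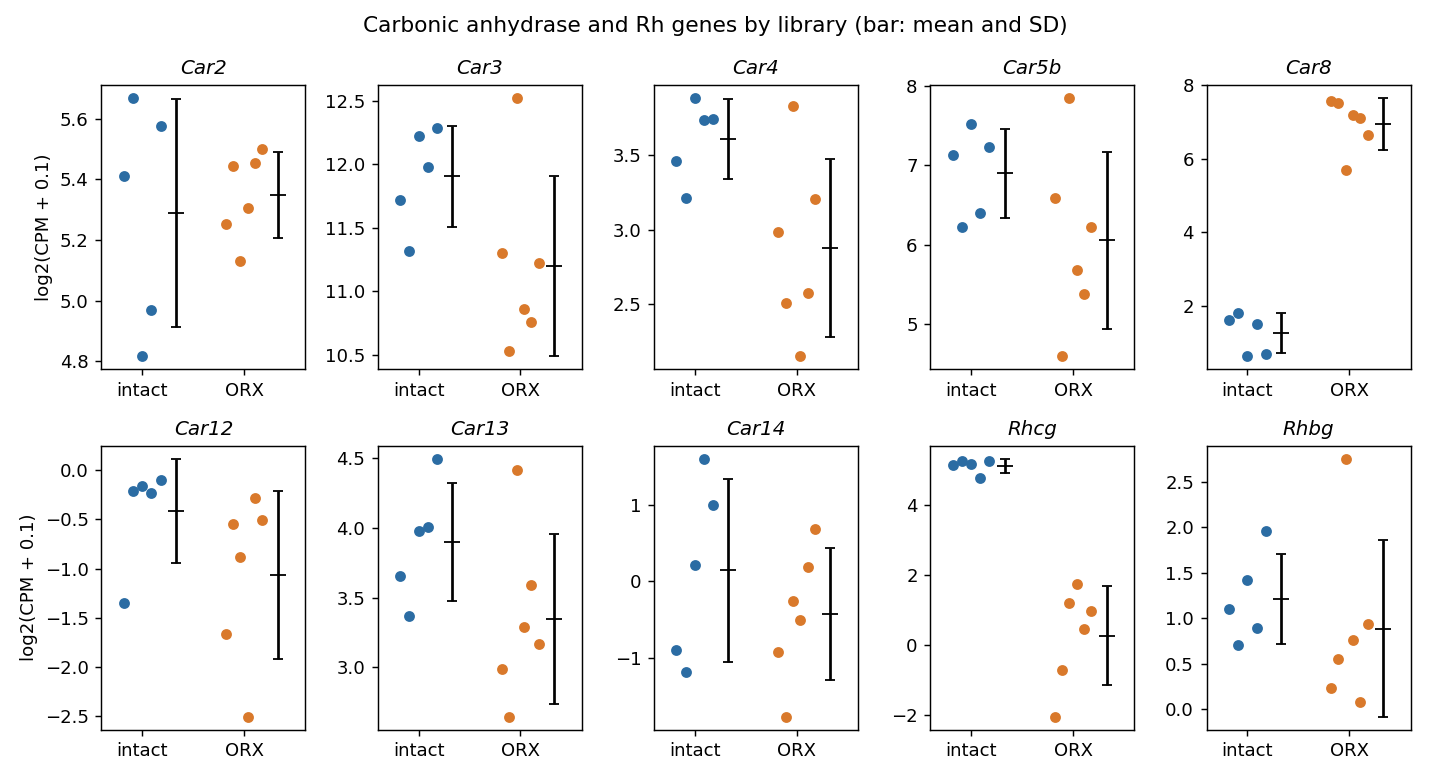
Points are libraries of intact (blue, n = 5) and ORX (orange, n = 6) glands, drawn on a vertical axis of log2(CPM + 0.1) whose scale differs between panels, and black bars are the mean and SD of those log2 values. Car8 and Rhcg separate the groups, and in Car3, Car5b and Rhbg the ORX 3 point stands apart above the other ORX points.

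Also higher in ORX were the X-zone markers, genes of the juvenile inner cortical layer that regresses in males. All 3 of 3 markers passed, and their summed level was 28.8 to 40.2 CPM in intact and 831 to 2911 CPM in ORX. Most of the intact sum was Thrb, at 29.8 ± 5.71 CPM, and most of the ORX sum was Akr1c18, at 1385 ± 608 CPM. The rises were unequal, at log2 9.02 for Akr1c18, 8.54 for Pik3c2g and 1.38 for Thrb, whose groups overlapped. Akr1c18, which inactivates progesterone, had 10 to 84 counts in intact and 10117 to 33312 in ORX libraries. Among the ORX libraries, ORX 3 and ORX 6 were the lowest both in Akr1c18 (746 and 821 CPM) and in Car8 (51.7 and 101 CPM), and ORX 1 was the highest in both (2392 and 191 CPM). ORX 2 was near ORX 1 in Car8 (184 CPM), but its Akr1c18 (1267 CPM) was below that of ORX 4 and ORX 5 (1686 and 1400 CPM). ORX 3 and ORX 6 also had the highest summed fat markers of the ORX libraries, at 16770 and 9243 CPM. The others had 3977 to 6440 CPM. Car8 spanned a 3.69-fold range over the 6 ORX libraries, and its ratio to Akr1c18 a 2.1-fold range, from 69.3 to 145 CPM of Car8 per 1000 CPM of Akr1c18. In intact libraries, where both genes had few counts, the same ratio was higher, at 488 to 3000, so Akr1c18 differed more between the groups than Car8 did. The parts of X-zone cells and of fat tissue in the level of Car8 were not tested.

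Car8 also changed its place within the family. Levels of different genes were compared per kilobase of exon (CPM per kb), over the 20 carbonic anhydrase and Rh genes listed. In intact glands Car8, at 0.629 ± 0.23 CPM per kb, took rank 11, and in ORX, at 35.1 ± 13.6 CPM per kb, rank 2 after Car3. Leaving Car3 aside, Car8 made up 0.645% to 2.05% of the summed CPM per kb of the 7 remaining carbonic anhydrases described, itself included, in intact libraries. In ORX it made up 16.6% in ORX 3 and 39.8% to 63.6% in the other libraries. The catalytically active cytosolic Car2, by contrast, kept rank 3 in both groups.

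**Figure D2:**
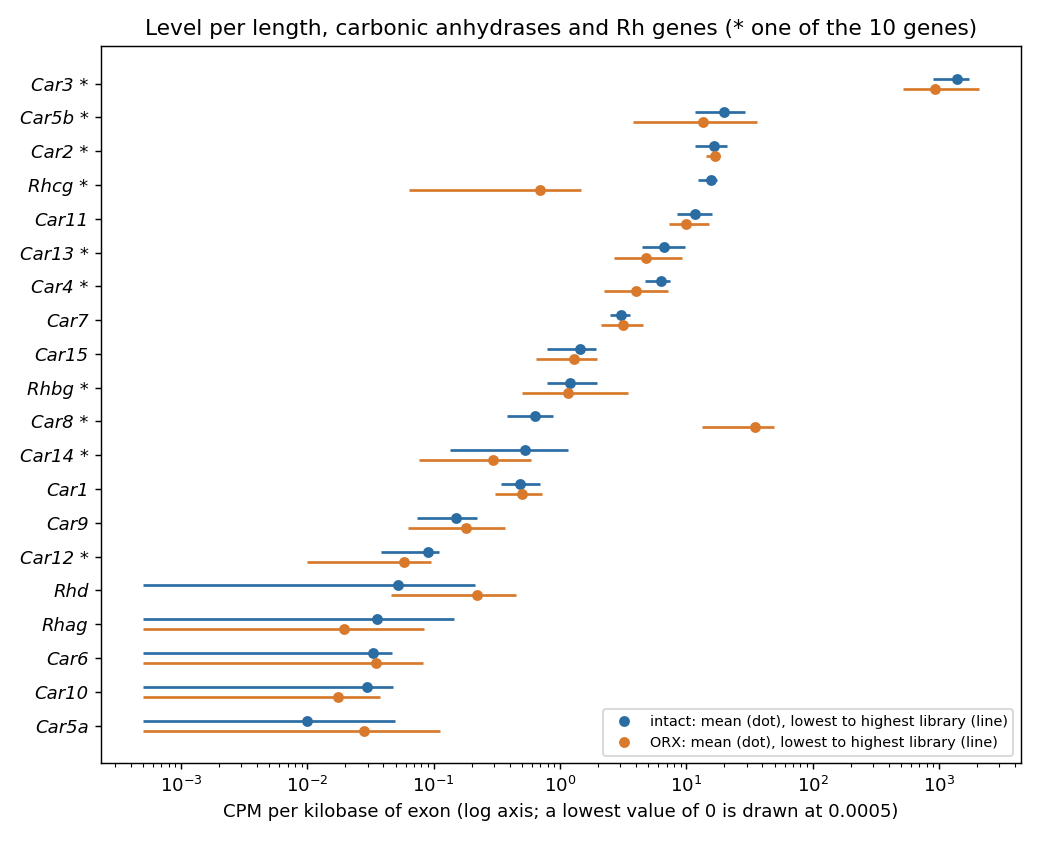
Each row is a carbonic anhydrase or Rh gene, ordered by its level in intact glands, with the level on the horizontal log axis in CPM per kilobase of exon; dots are means and lines run from the lowest to the highest library of intact glands in blue (n = 5) and ORX glands in orange (n = 6), with a lowest value of 0 drawn at the left end. Only the lines of Car8 and Rhcg do not overlap between the groups among the 20 genes drawn.

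Rhcg (chromosome 7, 79593363 to 79617657, minus strand) went the other way. It had 487, 456, 549, 327 and 504 counts in the intact libraries, or 35.5, 38.7, 36.4, 27.4 and 38.2 CPM. In ORX it had 2 to 43 counts, with a lowest value of 0.144 CPM in ORX 1, a median of 1.58 CPM and a highest of 3.27 CPM in ORX 4. All ORX libraries were below all intact libraries, and while intact libraries differed at most 1.42-fold, the ORX libraries spanned a 22.8-fold range. The mean went from 35.2 ± 4.59 to 1.55 ± 1.15 CPM (SD, n = 5 and 6), which is a difference of log2 -4.51 ± 0.47 (SE; 22.7-fold lower; edgeR adjusted p = 0.000151), which is rank 3 among the falls of all tested genes. With any 1 library left out it lay between -4.88 and -4.28 (edgeR adjusted p up to 0.000846). Per kilobase, Rhcg at 15.8 ± 2.06 in intact glands was within the spread of Car2 (16.5 ± 4.13) and Car5b (19.9 ± 7.24), and it took rank 4 of 20 there and rank 11 in ORX.

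The 250 bases before the Rhcg start are shown because Rhcg had the lowest fold change of the genes described. They come from RefSeq's GRCm38.p6 table (chr7:79617658-79617907, minus strand, written 5′ to 3′), in which 5 of the 10 genes had an entry, Car4, Car5b, Car12, Car14 and Rhcg. Capitals mark the single match to a core motif of steroid receptors of the androgen and glucocorticoid type, AGAACA or its reverse complement TGTTCT, which begins 193 bases before the start.

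Rhcg: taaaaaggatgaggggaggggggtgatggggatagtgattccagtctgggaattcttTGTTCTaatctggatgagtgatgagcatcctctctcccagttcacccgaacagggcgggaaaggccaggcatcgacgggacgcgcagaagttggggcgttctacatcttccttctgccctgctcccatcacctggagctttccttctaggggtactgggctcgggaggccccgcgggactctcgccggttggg

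A match to AGAACA on either strand stood in 16.1% of the 32851 such windows with a RefSeq entry, which do not cover all genes. Of the other 4 windows of the genes described, that of Car14 held one. The window of none of the 5 genes held CAAGGTCA, a site of the SF-1 type, which 1.3% of all windows held, searched on both strands. A match describes these letters and shows no binding.

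Kidney, where Rhcg is best known, borders on the adrenal, and its markers were low. Of 15 kidney genes listed, 6 had no count in any library, among them Umod, and Slc12a1 had 1 count in all. Aqp2, the water channel of the collecting duct, was at 0.187 ± 0.0745 CPM in intact and 0.439 ± 0.318 CPM in ORX. The summed level of the list was 2.35 to 17.2 CPM in intact and 2.73 to 10.8 CPM in ORX libraries, and 0 of its 2 tested genes passed. Most of the sum was 1 gene, Atp6v0d2, at 4.99 ± 6.01 CPM in intact and 3.48 ± 2.79 CPM in ORX. The means of the other listed genes were at most 0.778 CPM in intact and 1.85 CPM in ORX. The sum is therefore a weak measure of kidney tissue. Intact 2 had the highest sum and Rhcg at 38.7 CPM there, and the other intact libraries, at 5.98 CPM of kidney markers or below, had Rhcg at 27.4 to 38.2 CPM.

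The medulla markers were lower in ORX in part, with 2 of 13 passing, Slc18a2 and Npy, whose groups overlapped for Npy. The other 11 did not pass, and 2 of them were above 0, Pnmt (log2 0.24 ± 0.38) and Phox2a (0.03 ± 0.26). The median of the 13 was -0.50. They summed to 13460 to 32930 CPM in intact and 7580 to 18650 CPM in ORX. With the medulla marker score as a covariate, Rhcg was at log2 -3.91 ± 0.60 (edgeR adjusted p = 0.0123) and Car8 at 5.29 ± 0.55 (edgeR adjusted p = 0.000663). Of 8 markers of the zona glomerulosa, the outer cortex, 4 were lower, Agtr1a, Hsd3b6, Shh and Kcnk9. The other 4 did not pass and went both ways. Cyp11b2 was at log2 -0.61 ± 0.40, Dab2 at -0.23 ± 0.28, Agtr1b at -0.11 ± 0.29 and Wnt4 at 0.32 ± 0.15. The sum of the 8 was 1103 to 2591 CPM in intact and 1304 to 1564 CPM in ORX. The order of the libraries depended on the summary. By the sum, which the markers of many counts carry, intact 3 and intact 4 were the lowest of all libraries (1166 and 1103 CPM, with Rhcg at 36.4 and 27.4 CPM). By the mean log2 CPM of the 8 markers the groups did not overlap, at 6.30 to 7.38 in intact and 5.64 to 6.04 in ORX, with intact 3 and intact 4 at 6.30 and 6.39. The part of glomerulosa cells in the level of Rhcg was not tested.

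Genes whose levels across the 11 libraries were most like those of Car8 and Rhcg were found by the root mean square difference of log2 CPM. Each gene's own mean was subtracted first. Compared were 12778 other tested genes with a mean of at least 1 CPM, leaving out genes with Gm, Rik or LOC names. Nearest to Car8 was Serpinb1a, a protease inhibitor gene, at a difference of 0.46, from 5.01 ± 1.85 to 189 ± 53.6 CPM. Then came Ugt1a1 (0.71), Adh1 (0.77), Ajap1 (0.84) and Fa2h (0.86). Ugt1a1 has its last exons in common with the other Ugt1a genes, and its count is therefore uncertain. Adh1, an alcohol dehydrogenase that also acts on retinol, went from 390 ± 133 to 7975 ± 1532 CPM. Nearest to Rhcg were Acan, the proteoglycan aggrecan, at 0.83 and from 98.4 ± 38.7 to 6.34 ± 4.18 CPM, Cited1 (1.1), Alpl, an alkaline phosphatase (1.14), Nxph3 (1.39) and Acot12 (1.4). Like Rhcg, Acan, Cited1, Alpl and Nxph3 were lowest in ORX 1. These genes were picked for their likeness and no test is given for them.

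**Figure D3:**
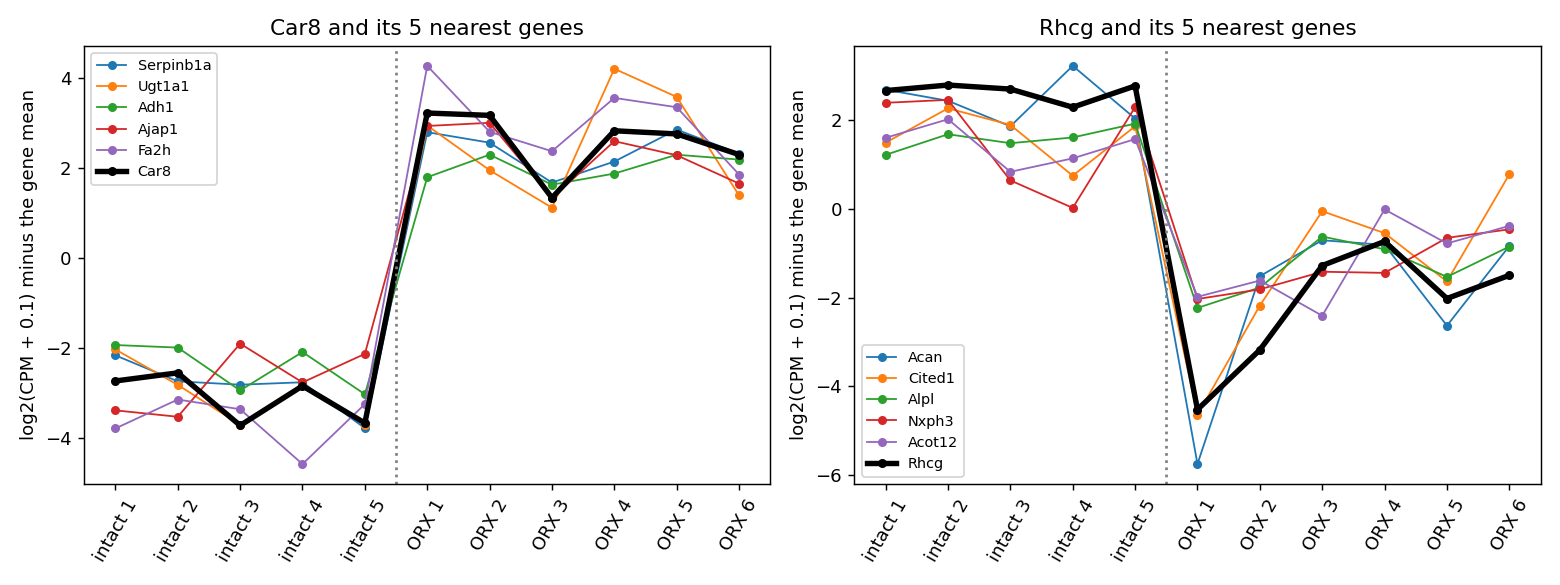
The vertical axis is log2 of CPM plus 0.1 minus the gene's mean over the 11 libraries. On the horizontal axis the libraries stand by group and sample number, with a dotted line between the groups. Lines only join the points of a gene. Left, Car8 (thick), Serpinb1a, Ugt1a1, Adh1 and Ajap1 have their lowest ORX value in ORX 3, where Car8 has 51.7 CPM; right, Rhcg (thick) is lowest in ORX 1, as are all its neighbours except Acot12.

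The active cytosolic and membrane-bound carbonic anhydrases did not pass the test, which does not show that they were equal. Car2, the fast cytosolic enzyme (chromosome 3, 14886273 to 14900770), had 42.4, 50.8, 28.1, 31.2 and 47.6 CPM in intact libraries and 34.9 to 45.2 CPM, with a median of 41.5, in ORX. The ORX range lay wholly inside the intact range, and the log2 fold change was 0.03 ± 0.17 (SE; edgeR adjusted p = 0.942). Car13, another cytosolic enzyme (14641727 to 14663002 on the same chromosome), was at 15.3 ± 4.62 CPM in intact and 10.9 ± 5.36 CPM in ORX (log2 -0.49 ± 0.30; edgeR adjusted p = 0.362). Without ORX 3, its highest ORX library, Car13 was at log2 -0.79 ± 0.24 (edgeR adjusted p = 0.0639), and with the score of the 10 fat markers as a covariate at -0.20 ± 0.25. Its level spanned a 3.64-fold range over all libraries and its ratio to the summed fat markers a 2.23-fold range. Car13, Car3 and Car2 stand in a cluster of 259.0 kb on chromosome 3 together with Car1, which had 5 to 13 counts in a library of either group.

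Car3 had the highest level per length of the set. It encodes a cytosolic enzyme of low activity that is plentiful in fat, muscle and liver (chromosome 3, 14863512 to 14872523). Intact libraries had 3375, 2559, 4781, 4039 and 4997 CPM. The ORX libraries ran from 1483 to 5888 CPM with a median of 2123. ORX 3 alone was above all intact libraries, whereas the other 5 ORX libraries were at 2531 CPM or below and thus under each intact library. The log2 fold change was -0.58 ± 0.34 (SE; edgeR adjusted p = 0.335), and without ORX 3 it was -0.98 ± 0.23 and passed (edgeR adjusted p = 0.0228). Per kilobase Car3 stood at 1380 ± 352 in intact and 924 ± 571 in ORX glands and took 95.4% to 97.1% and 87.3% to 96.2% of the sum of the 8 carbonic anhydrases.

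The fat markers moved with Car3. The 10 fat markers, among them Adipoq (589 ± 254 CPM in intact, 462 ± 286 in ORX) and Plin1 (468 ± 247 and 295 ± 154), summed to 6055 to 16410 CPM in intact and to 3977 to 16770 CPM in ORX, with intact 3 and ORX 3 the highest of their groups. None of the 10 passed, and all 10 had a log2 fold change below 0, with a median of -0.49 against 0.012 over all tested genes. The level of Car3 differed up to 3.97-fold between the 11 libraries and the fat sum up to 4.22-fold, but their ratio only 1.7-fold, from 258 to 439 CPM of Car3 per 1000 CPM of fat markers. The mean ratio was 380 ± 67.4 in intact and 347 ± 53.8 in ORX (SD, n = 5 and 6), and the groups overlapped. With the fat score as a covariate the log2 fold change of Car3 was -0.23 ± 0.19 (edgeR adjusted p = 0.513). Capsule and stroma markers (0 of 9 passing) also peaked in ORX 3, at 1566 CPM against 477 to 871 CPM in the other ORX libraries and 805 to 1544 CPM in intact, and their part in the level of Car3 was not tested.

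Car5b, which encodes a mitochondrial isoform, and Car4, whose product is anchored to the outer cell membrane, were highest in intact 3 and in ORX 3 within their groups, the libraries with most fat markers. Car5b (chromosome X, 163976822 to 164027997) had 140, 74.7, 184, 84.4 and 150 CPM in intact and 24.1 to 230 CPM, with a median of 62.9, in ORX. Its level spanned a 9.57-fold range and its ratio to the fat sum a 2.46-fold range, and the log2 fold change of -0.55 ± 0.47 (edgeR adjusted p = 0.518) became -0.17 ± 0.26 with the fat score as a covariate. Without ORX 3 it was -1.14 ± 0.35 (edgeR adjusted p = 0.0623). With limma voom, run with sample weights, it was -1.17 ± 0.46 (limma adjusted p = 0.103). Car4 (chromosome 11, 84957786 to 84966044) had 10.9, 9.18, 14.7, 13.2 and 13.3 CPM in intact and 4.34 to 14.2 CPM, with a median of 6.84, in ORX. Its log2 fold change was -0.65 ± 0.28 (edgeR adjusted p = 0.181), -0.91 ± 0.23 without ORX 3 (edgeR adjusted p = 0.0323) and -0.35 ± 0.19 with the fat score as a covariate (edgeR adjusted p = 0.315). Its ratio to the fat sum varied 1.8-fold, against 3.39-fold for its level.

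Rhbg, the relative of Rhcg (chromosome 3, 88242874 to 88254709), did not pass the test. It was low, with 18 to 50 counts in intact libraries and 2.04, 1.53, 2.58, 1.76 and 3.79 CPM. In ORX the values ran from 0.961 to 1.81 CPM in 5 libraries and reached 6.63 CPM in ORX 3. The log2 fold change was -0.07 ± 0.49 (SE; edgeR adjusted p = 0.955), and -0.78 without ORX 3. Exons of Rhbg overlap those of Gm38392 on the same strand, so its count depends on how shared reads were treated. The ratio of Rhbg to the fat sum varied 2.51-fold and its level 6.9-fold. For Car2 the reverse was seen, with a 1.81-fold range of the level and a 6.38-fold range of the ratio.

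**Figure D4:**
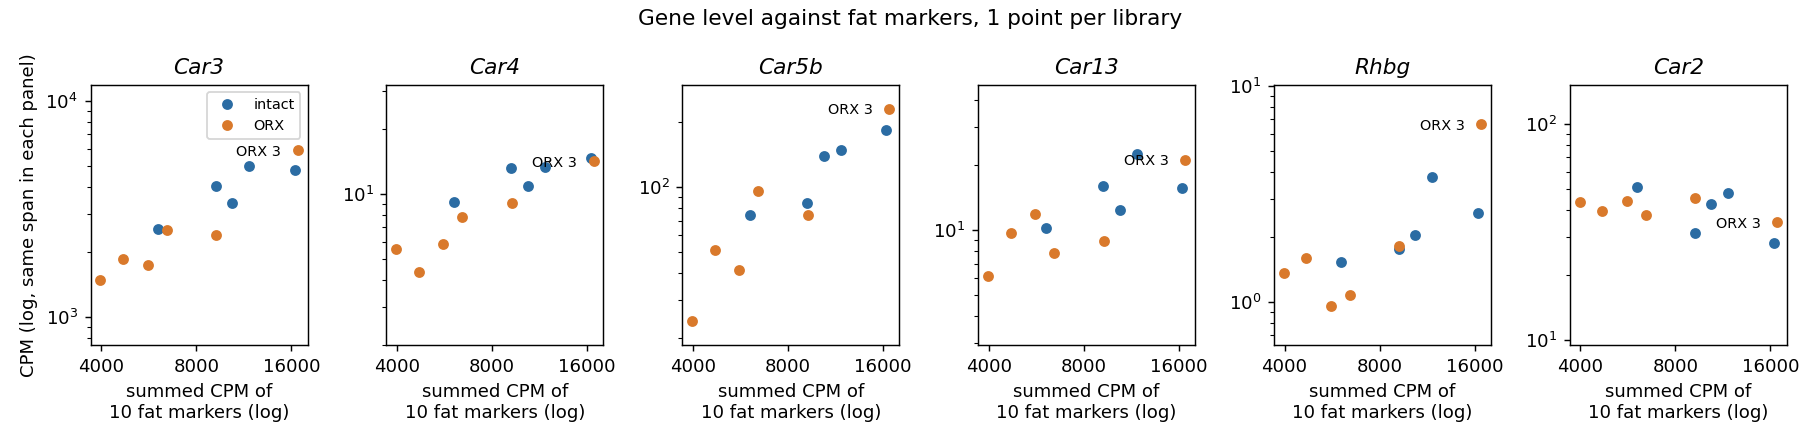
Each point is 1 library (5 intact in blue, 6 ORX in orange), with the summed CPM of 10 fat markers on the horizontal log axis and the gene's CPM on the vertical log axis, which has the same span in each panel. The points of Car3, Car4 and Car5b run from lower left to upper right, where ORX 3 lies with the highest fat marker sum, and Car2 stays between 28.1 and 50.8 CPM.

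Both transmembrane isoforms were near the detection limit. Car12 (chromosome 9, 66713686 to 66766845) had 4 to 12 counts in intact and 1 to 9 in ORX libraries and was not tested. Car14 (chromosome 3, 95897768 to 95904691) had 6, 4, 16, 35 and 25 counts in intact and 3 to 20 in ORX libraries, a log2 fold change of -0.82 ± 0.57 (SE; edgeR adjusted p = 0.425). Without intact 4 it was -0.34 ± 0.57, and with the fat score as a covariate -0.39 ± 0.66 (edgeR adjusted p = 0.775 and 0.765). The groups overlapped, with intact 1 and intact 2 at 0.437 and 0.34 CPM and the ORX libraries at 0.195 to 1.51 CPM. Exons of Car14 overlap those of Aph1a on the opposite strand, and whether counting used the strand is not stated.

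Car3 is also known as a muscle gene and Car2 as a gene of red blood cells. Of 10 skeletal muscle genes 1 was tested and did not pass, Ckm was at 0.562 ± 0.423 and 0.216 ± 0.133 CPM, and the list summed to 1.82 to 20.5 CPM in intact and 1.94 to 6.57 CPM in ORX. Of 9 red cell genes listed, 8 were found and 5 were tested and none passed. Their sum was 127 to 425 CPM in intact and 114 to 463 CPM in ORX, with Hbb-bs, listed as Beta-s, at 211 ± 102 and 194 ± 143 CPM and with both alpha globin genes, near-identical copies, listed at 0. Brown fat markers summed to 192 to 1479 and 210 to 958 CPM, with 0 of 6 passing and Ucp1, the uncoupling protein, at 436 ± 314 and 239 ± 230 CPM.

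Among 9 endothelial markers, relevant to Car4 as a gene of capillaries, none passed, and they summed to 827 to 1162 and 810 to 960 CPM (Pecam1 120 ± 13.2 and 91.4 ± 10.3 CPM; edgeR adjusted p = 0.083). Macrophage markers (0 of 8 passing, 316 to 715 and 418 to 846 CPM) also overlapped between the groups. Of 7 glial markers, Gfap was lower, and the list summed to 55.8 to 93.0 and 60.6 to 79.5 CPM. Of the fasciculata markers 3 of 8 were higher, Mc2r, Cyp21a1 and Hsd3b1. The other 5 did not pass and went both ways. Akr1b7 was at log2 -2.29 ± 0.72, Scarb1 at -1.15 ± 0.43, Cyp11a1 at -0.56 ± 0.32, Cyp11b1 at 0.55 ± 0.25 and Star at 0.06 ± 0.28. The median of the 8 was 0.30.

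Of 54 tested genes in 7 lists of related functions, 5 passed (9.26%, against 6.21% of all tested genes), 1 as higher and 4 as lower. Of the other 8 carbonic anhydrases 3 had enough counts, Car7, Car11 and Car15, and none passed (log2 0.05 ± 0.22, -0.25 ± 0.23 and -0.17 ± 0.35). Rhag and Rhd, the Rh genes of red cells, had at most 4 and 11 counts in a library and were not tested. Of 10 tested bicarbonate transporters of the Slc4 and Slc26 families, 1 was lower, Slc4a8, a sodium-driven exchanger of chloride for bicarbonate. Its mean was 16.4 ± 1.51 CPM in intact and 10.4 ± 2.20 CPM in ORX, or log2 -0.66 ± 0.17 (edgeR adjusted p = 0.0382). Dropping intact 1, 2, 4 or 5 or ORX 1, 2, 5 or 6 took it over the threshold, at most to an edgeR adjusted p of 0.0908, and it was also over the threshold with the fat score as a covariate (0.0763), with scaling by library totals (0.0716) and without intact 3 and ORX 3 together (0.0532). None of 6 tested sodium-proton exchangers passed, with a median log2 fold change of -0.06.

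Of 13 tested genes of ammonia metabolism 1 was higher and 1 lower. Asl, which splits argininosuccinate, rose from a mean of 69.3 ± 5.90 CPM in intact to 148 ± 38.1 CPM in ORX, or log2 1.10 ± 0.17 (edgeR adjusted p = 0.00282), with every ORX library above every intact library. Nags, whose product makes the activator of carbamoyl phosphate synthesis, had means of 3.69 ± 2.01 CPM in intact and 1.03 ± 0.552 CPM in ORX and passed as lower, at log2 -1.81 ± 0.45 (edgeR adjusted p = 0.0328). Dropping intact 1, 2 or 5 or ORX 1, 4 or 5 took it over the threshold, with 0.0854 as the highest edgeR adjusted p.

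None of 12 tested genes of IP3 receptors and store calcium passed. Itpr1, the binding partner of the Car8 protein, was at 225 ± 37.1 CPM in intact and 177 ± 41.7 CPM in ORX (log2 -0.34 ± 0.19; edgeR adjusted p = 0.305). Of 10 acid-sensing genes 2 were lower. Kcnk9, an acid-inhibited potassium channel that also stands among the glomerulosa markers, fell from a mean of 80.2 ± 38.0 CPM in intact to 7.65 ± 4.60 CPM in ORX, or log2 -3.39 ± 0.52 (edgeR adjusted p = 0.00251). Gpr4, a proton-sensing receptor, fell from a mean of 40.2 ± 19.7 CPM in intact to 13.2 ± 5.41 CPM in ORX, or log2 -1.60 ± 0.34 (edgeR adjusted p = 0.0153). With the medulla score as a covariate none of these 5 genes passed. Over all tested genes 96 then passed as higher and 22 as lower, against 428 and 450 without the covariate. The mean log2 CPM of the medulla markers was 8.216 to 9.035 in intact and 7.55 to 8.309 in ORX libraries. With the covariate Gpr4 was at log2 -0.50 (edgeR adjusted p = 0.519), Nags at -1.07 (0.508), Slc4a8 at -0.67 (0.261), Kcnk9 at -3.42 (0.123) and Asl at 1.13 (0.0693). Slc4a8, Kcnk9 and Asl nearly kept their log2 fold changes, with larger SEs (0.261, 0.922 and 0.255), while those of Gpr4 and Nags became smaller in size. The part of medulla cells in the levels of these genes was not tested. The median log2 fold change was -0.34 for the bicarbonate transporters, -0.23 for ammonia metabolism, -0.21 for store calcium and -0.20 for acid sensing, against 0.012 over all tested genes.

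**Figure D5:**
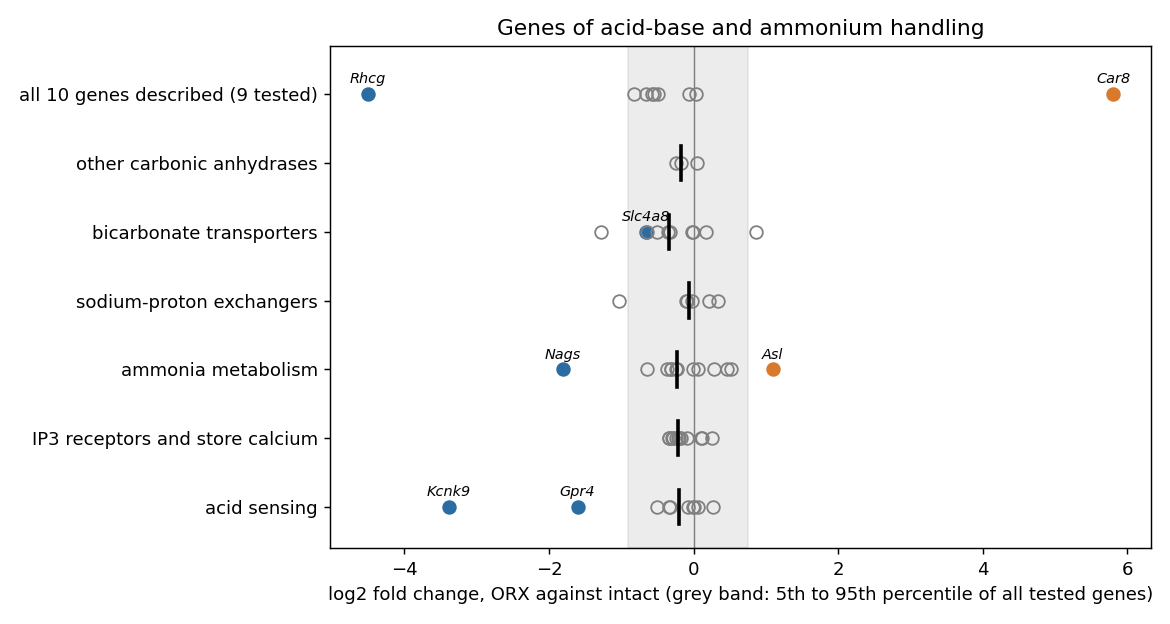
Each circle is the log2 fold change of a tested gene, ORX against intact (horizontal axis), filled where it passed as higher (orange) or lower (blue) and open where it did not; black bars are list medians and the grey band holds the 5th to 95th percentile of all tested genes (-0.91 to 0.75). Car8 and Rhcg lie at the ends of the axis, and most other genes lie in the band.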

How the data were processed

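The authors deposited raw counts per gene symbol, per the file headers and values, from adrenal RNA (300 ng per library, Illumina TruSeq, per the labels' protocols). Tools given in the submitters' processing notes are Subread 1.5.1 and bcl2fastq 1.8.4, with the build mm10. Not given in the sources used here: strand setting, annotation and the treatment of shared reads. The table holds 2 identical copies, of which the first was used.

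Groups came from the sample titles. Nothing says that each sample is a separate mouse, so the spread behind the p-values is that of these samples and may be technical. edgeR 4.0.16 (R 4.3.3; filterByExpr with minimum count 10 and total 15, TMM scaling, glmQLFit and glmQLFTest, two-sided) compared ORX with intact without covariates, with Benjamini-Hochberg adjustment over the 14139 tested genes, which hold 99.92% of the counts. Each edgeR standard error is the absolute log2 fold change over the square root of F, and that of limma voom is the log2 fold change over t. The fit was tested on simulated data. Positions and exon lengths are from GENCODE M21 (GRCm38, the assembly also called mm10).

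The 10 genes, 20 lists and tests were chosen with earlier results of these data known. Named are the 10 genes, up to 4 passing genes of each pathway list, fixed markers of other cells and the 5 genes nearest to Car8 and to Rhcg. Other genes named were added after their values were seen. These are passing marker genes, the other fasciculata and glomerulosa markers, Pnmt, Phox2a, Atp6v0d2, Itpr1, Glul, Hsd11b2 and the remaining carbonic anhydrase and Rh genes. Symbols of 6 listed genes were matched through RefSeq synonyms. Tried as alternatives were DESeq2 1.42.0, scaling by RLE or by library totals, no filter and limma 3.58.1. The limma run, called limma voom here, used voom with sample weights. Further alternatives were fat or medulla scores as covariates, the sample number as a block, and leaving out libraries. Protein sequences were not used here.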

Additional observations from a re-analysis of the deposited data

Results flagged for a closer look

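Of 20 groups of values (10 genes in 2 groups), 5 held a library far from the rest by Dixon's gap test, which chance alone flags in about 1 of 20 groups, and 3 of the 5 were ORX 3. Car3 was at 5890 CPM in ORX 3, against 1480 to 2530 CPM in the other ORX libraries. Car5b was at 230 CPM in ORX 3, against 24.1 to 95.9 CPM, and Rhbg at 6.63 CPM, against 0.961 to 1.81 CPM. ORX 3 also had the highest fat marker sum of all libraries (16770 CPM). Rhcg was lower in intact 4 (27.4 CPM) than in the other intact libraries (35.5 to 38.7 CPM). Car12 was lower in intact 1 (0.292 CPM, 4 counts) than in the others (0.753 to 0.834 CPM). No explanation of these values was tested.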

How the results depend on the processing

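Car8 stayed higher and Rhcg lower past the threshold under all alternatives run, with log2 fold changes from 5.28 (fat score as a covariate) to 5.97 (without ORX 3) and from -5.06 (limma voom) to -3.91 (medulla score as a covariate). The genes among the 10 that were lower numbered 1, but 2 with limma voom (Rhcg and Car4, at -0.92), and 1 to 3 when 1 library was left out. They were 3 without intact 3 and ORX 3 together, an alternative added after seeing the data, with Car3 at -0.92 and Car4 at -0.85. Near 0, Car2 changed sign, at -0.105 with the fat score, -0.013 with limma voom, -0.049 without intact 3 and ORX 3 and from -0.09 to 0.13 with 1 library left out. Rhbg was at 0.26 with the fat score, 0.62 with the medulla score and from -0.78 to 0.17 with 1 library left out. Genes of the whole table passing as higher and lower numbered 428 and 450, 750 and 880 with DESeq2, 961 and 1095 with limma voom, 234 and 260 with the fat score, 96 and 22 with the medulla score, 668 and 896 without intact 3 and ORX 3, and 224 to 551 and 182 to 729 with 1 library left out. Pathway genes passing as higher numbered 1, 3 with DESeq2, 2 with limma voom, 2 without intact 3 and ORX 3, 0 with the medulla score and 1 to 2 with 1 library left out. Those passing as lower numbered 4, 0 with the medulla score and 2 to 4 with 1 library left out. The causes were not tested.

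No pairing by sample number is stated, and the values do not settle whether there was one. Over all tested genes, deviations of same-numbered samples from their group means correlated between -0.27 and 0.18, and 2 of 5 pairs were over 0.1. Fat marker sums were highest in number 3 of both groups (16410 and 16770 CPM) and lowest in number 2 (6055 and 3977 CPM). Over all tested genes, however, the deviations correlated at -0.21 for number 3 and at -0.12 for number 2. The SE of Car8 was smaller with the number as a block (0.22 against 0.39), and that of Rhcg was larger (0.57 against 0.47). With the number as a replicate block, ORX 6 dropped, 222 and 187 genes of the whole table passed and 1 pathway gene as lower, Kcnk9, while Slc4a8, Gpr4 and Nags did not (edgeR adjusted p = 0.106, 0.0657 and 0.0546). Genes with few counts, such as Car12, could not be tested at this depth.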

Other observations

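Of the kidney-listed genes, Hsd11b2, which inactivates glucocorticoids, was chosen after its values were seen, and in CPM its ORX libraries were all above its intact libraries. It had 2 to 16 counts in intact and 15 to 39 in ORX libraries, or 0.778 ± 0.373 and 1.85 ± 0.704 CPM (log2 1.25 ± 0.42; edgeR adjusted p = 0.0922). The level of Glul, glutamine synthetase, which takes up ammonium, was 1693 ± 268 CPM in intact and 2334 ± 361 CPM in ORX (log2 0.46 ± 0.17; edgeR adjusted p = 0.126).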
